A study of Mus musculus with 24 samples.

Results

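Of the 12181 transcript regions that carried an m6A peak in all 3 unirradiated WT libraries, 626 (5.14%) overlapped no peak in any of the 6 irradiated libraries. These 626 regions were chosen by measured values, the presence of peaks in immunoprecipitated (IP) libraries, in 3 steps. The peaks of the 3 unirradiated WT (WT Ctrl) libraries were merged on each strand wherever they overlapped by at least 1 base, which gave 22383 regions. Regions with a peak from every one of the 3 libraries were kept as the WT Ctrl consensus. The consensus regions that touched no peak on the same strand in the 3 WT IR and 3 Ythdf2-cKO IR IP libraries were then set apart. Their absence after irradiation is thus how they were chosen and not a finding. The measurements that follow asked whether the RNA of their genes fell, or whether the antibody recovered less of an RNA whose level was kept.

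Myeloid cells bearing CD11b were sorted from MC38 tumors, a transplanted mouse colon carcinoma, in C57BL/6J mice. WT mice carried Ythdf2 fl/fl without Cre, and Ythdf2-cKO mice carried Ythdf2 fl/fl with Cre expressed from the Lyz2 locus, which is active in monocytes, macrophages and neutrophils. Tumors received either no radiation (Ctrl) or a single dose of 20 Gy (IR), and cells were collected 3 days later. Polyadenylated RNA of each of the 4 conditions was sequenced in 3 replicates, once directly (Input) and once after m6A immunoprecipitation (IP), in 24 libraries. Cells of several mice were pooled for a replicate, and the sources call the replicates technical in one place and biological in another, so p-values measure only the spread between these samples. Gene counts per library, in units of 1e6, were 65.2 to 83.7 for Input and 68.8 to 86.4 for IP.

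The labels of the irradiated IP libraries went against Lyz2, the lysozyme gene into which the Cre was inserted. Lyz2 stood at 19665 to 20891 CPM (counts scaled to a library total of 1e6) in the 6 WT Inputs and at 298 to 420.2 CPM in the 6 cKO Inputs. In IP it was 16938 to 17662 CPM in WT Ctrl and 96.2 to 101 CPM in cKO Ctrl. However, the 3 IP libraries labelled WT IR held 95.3 to 98.3 CPM, and the 3 labelled cKO IR held 20642 to 20924 CPM. The choice of the 626 regions used all 6 irradiated IP libraries together and does not depend on which genotype each was, so irradiation effects are given below as the mean of both genotypes wherever IP enters. Ythdf2 itself read 95.7 to 104 CPM in WT Inputs and 175 to 234 CPM in cKO Inputs, a count over the whole gene that does not show which exons were read. Among lists of cell markers, the 6 genes of the sorted cells summed to 4034 to 4094 CPM in WT Ctrl Inputs and to 3043 to 3100 CPM in WT IR Inputs, and all 6 fell in the mean of both genotypes. Itgam, which encodes CD11b, read 0.09 in WT and -0.23 in cKO on the log2 scale. The 7 T and B lymphocyte genes summed to 1.53 to 2.89 CPM over all Inputs. Eosinophil, basophil and mast cell genes fell (5 of 5 tested). Of 12 primary granule and progenitor genes, 8 fell, with the granule genes Elane, Mpo, Prtn3 and Ctsg among them. The 2 that rose were Kit (0.18) and Flt3 (0.35). By the Input test described below, 24.1% of all 16090 genes fell and 22.5% rose, the background for all counts of list genes here. The platelet genes Pf4 and Ppbp rose, by 0.68 and 0.80. The erythroid genes set the WT IR Inputs apart, since Hbb-bs stood there at 11.6 to 15.3 CPM, Hba-a1 at 6.32 to 7.82 CPM and Alas2 at 1.95 to 2.4 CPM, while each was at 0.0556 CPM or less in the other 9 Inputs, cKO IR included. None of these genes had a consensus region, their part in the results was not tested, and the Input counts are also given below for each genotype on its own. Tumor and stroma genes fell in 2 of 3 tested and rose in 1. Fewer cells of a type and less RNA per cell cannot be told apart in these bulk samples.

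N6-methyladenosine is an internal methyl mark on mRNA, placed by the METTL3-METTL14 methyltransferase mostly within the DRACH motif, in long internal exons and around stop codons. YTHDF2 binds methylated RNA in the cytoplasm and recruits the CCR4-NOT deadenylase, which shortens the poly(A) tail and starts decay. In MeRIP-seq, fragmented RNA is pulled down with an m6A antibody, and a peak is a stretch where the IP reads exceed a background. A peak can therefore fail to be called because the RNA is scarce, because less of it is recovered, or because its height lies near the calling limit.

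Sequences at or near the summits of a few of these regions show the range of places they occupied. All are 29 bases of the transcribed strand read from the RefSeq GRCm38.p6 genome, 5′ to 3′. The first 5 hold a GGACT motif, a GGACA motif or a GGACC motif within 50 bases of the summit, written in capitals, and come from regions whose summits lay in the coding sequence of Thy1 (chr9:44046672-44046700, plus strand), Troap (chr15:99082288-99082316, plus) and BC035044 (chr6:128890907-128890935, minus), and in annotated introns of Cks1b (chr3:89416367-89416395, minus) and Kif4 (chrX:100713881-100713909, plus). The middle of the motif lay 2 and 7 bases before the summit in Thy1 and Troap, and 32, 29 and 36 bases after it in BC035044, Cks1b and Kif4, so that the last 3 stretches do not reach the summit base. All 5 stretches lie wholly within an annotated exon, in Cks1b and Kif4 the exon that starts 9 and 19 bases after the summit. In the other 5 the capital marks only the summit base, and they lie at the boundary between an intron and the exon after it. They belong to Exosc7 (chr9:123131877-123131905, plus), Bud31 (chr5:145141284-145141312, plus), Ezh2 (chr6:47554258-47554286, minus), Nup85 (chr11:115583707-115583735, plus) and Mucl1 (chr15:103752109-103752137, minus).
Thy1: aaaccttcgcctGGACTgccgccatgaga
Troap: gctgcccttgttGGACTgtcacaacactc
BC035044: agaactcttgtgGGACTtctctgcttcat
Cks1b: catgttgcccaaGGACAtagccaagctgg
Kif4: tgcgcagattgcGGACCtacagcaaaagc
Exosc7: ttttacagattggcTgccggcatgtggta
Bud31: tctactgcttttatTctacagatgagaca
Ezh2: gtttctgacatttgGcttttagaatgtgg
Nup85: tttctgctctttagGatgacgacatagag
Mucl1: tatttttttctttcTcttacagaaatgaa

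The 626 regions lay on 517 genes, with 603 regions assigned to a gene (572 to protein-coding genes) and 23 outside annotated genes. Most genes held a single such region (446 genes), 71 held at least 2, and Kif4 and Ska1 held 4 each, the highest number. For 189 genes these were the only WT Ctrl consensus regions, whereas 328 genes (63.4%) kept at least 1 other consensus region that overlapped an irradiated peak. The regions were short, with a median length of 191.5 bases (151 to 1087) against 303 bases for the other 11555 consensus regions. Of the consensus regions of up to 160 bases 17.4% were among the 626, compared with 1.28% of those over 500 bases. The lowest of the 3 WT Ctrl fold enrichments given by the peak caller had a median of 3.32 (1.18 to 11.0) here and 2.98 in the other regions, whereas the lowest of the 3 -log10 q values had a median of 17.9 here and 25.4 in the others. The strongest regions by this value were in Exosc7 (11.0 to 12.6-fold over the 3 libraries), Ergic2 (10.5 to 11.2-fold), Bud31 (9.95 to 11.9-fold) and Cks1b (9.13 to 9.94-fold). Just outside the rule were 795 regions overlapped in exactly 1 irradiated library, with a median lowest fold of 2.86 and a median length of 193 bases, and for 354 of them that library was WT IR replicate 2, which also had the most peaks of the irradiated libraries (17442, against 13470 to 15452). Without that library 980 regions (8.05%) would have met the rule. The nearest irradiated peak on the same strand lay 115 bases away at the closest and 3364 bases away at the median, and 176 regions (28.1%) had one within 1000 bases.

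The 3 unirradiated Ythdf2-cKO IP libraries played no part in the choice, and serve here as a second look at the same regions. In cKO Ctrl, 227 regions (36.3%) had a peak in all 3 libraries, 150 in 2, 123 in 1 and 126 in none. Of the other consensus regions 78.1% had a peak in all 3. The gap was present in every band of WT Ctrl enrichment, from 26.4% against 69.8% in regions with a lowest fold under 2 to 46.7% against 89.6% in those at 6-fold or more. Regions of the same genes share libraries and are not replicates, and these shares are a description with no test. The number of regions absent from a group also depended on the group even without radiation. The 3 cKO Ctrl libraries lacked 587 WT Ctrl consensus regions (4.82%). Counted over 3 libraries in the same way, those labelled WT IR lacked 1076 (8.83%) and those labelled cKO IR lacked 2224 (18.3%). Of the 10918 cKO Ctrl consensus regions, 211 (1.93%) were absent from the 3 WT Ctrl libraries, and 489 of the 10918 (4.48%) were absent from all 6 irradiated libraries. Among the 227 regions found in every unirradiated library, the median lowest fold was 3.81 in WT Ctrl and 3.87 in cKO Ctrl, and 106 reached 4-fold in all 3 cKO libraries. Those with the highest WT Ctrl folds were in Bud31 (11.0 to 13.2-fold in cKO Ctrl), Cks1b (6.98 to 8.76-fold), Sgo1 (7.60 to 9.60-fold), Mphosph10 (10.5 to 11.5-fold), Ska1 (7.29 to 8.18-fold) and Troap (7.02 to 9.65-fold).

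**Figure D1:**
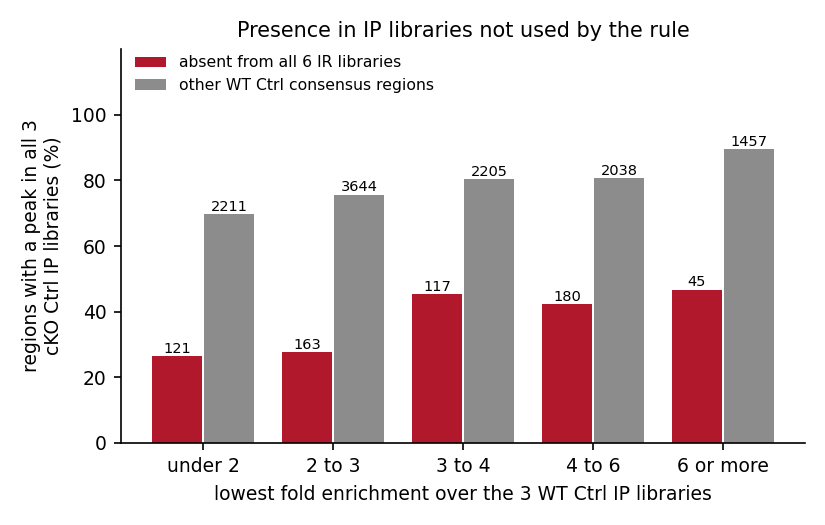
Percent of regions with a peak in all 3 cKO Ctrl IP libraries (y axis) by the lowest WT Ctrl fold enrichment (x axis), for the 626 regions absent from all irradiated libraries (red) and the other WT Ctrl consensus regions (gray); numbers above the bars are regions per band. The red bars are the lower ones in all 5 bands, from 26.4% against 69.8% to 46.7% against 89.6%.

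By annotation, 262 of the regions (41.9%) had their summit in coding sequence, 73 (11.7%) in a 3′ UTR, 20 (3.19%) in a 5′ UTR, 56 (8.95%) in a noncoding exon, 192 (30.7%) in an intron and 23 (3.67%) outside genes. Introns made up 17.7% of the other consensus regions and coding sequence 54.2%. Near stop codons, where m6A is known to be dense, the shares were alike, with 22.4% of the 626 and 22.5% of the others within 200 bases. The summits gathered at the starts of exons. Of the 626 summits, 254 (40.6%) lay within 20 bases of an annotated exon start and 3 (0.479%) within 20 bases of an exon end, compared with 30.5% and 0.744% of the other regions. Of the 192 intronic summits 174 (90.6%) lay within 50 bases before an exon start, as did 91.7% of the intronic summits elsewhere in the consensus. Exosc7 (6 bases inside the exon), Ergic2 (5 inside), Mphosph10 (3 inside), Bud31 (7 before it), Ezh2 (8 before) and Mucl1 (8 before) are of this kind, and in the sequences printed above for 4 of them the letters ag stand just before the exon. A further cluster stood 120 to 170 bases before exon ends, with 33.7% of the 626 summits and 27.8% of the others. Peaks were called with reads extended to a fixed length, and how far the summit positions depend on that setting was not tested. Short regions lay at exon starts in both sets: among those of up to 160 bases 59.5% of the 626 and 54.8% of the others were within 20 bases, and among those of 161 to 200 bases 45.7% and 53.9%. Length moved with the share at exon starts, and its part in the difference was not tested.

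**Figure D2:**
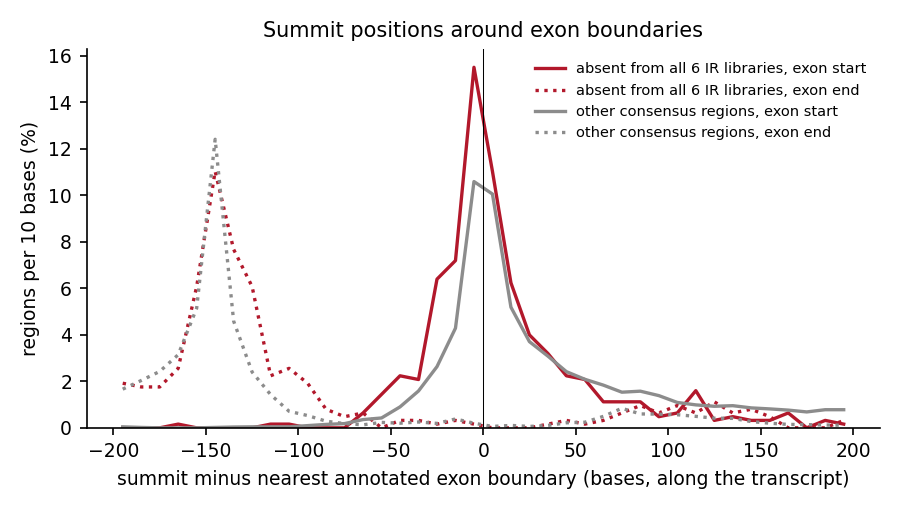
Percent of regions per 10 bases (y axis) by the distance of the summit from the nearest annotated exon start (solid) or exon end (dotted) in bases along the transcript (x axis), for the 626 regions absent from all irradiated libraries (red) and the other consensus regions (gray). Both sets pile up at exon starts, with 40.6% and 30.5% of summits within 20 bases, and again 120 to 170 bases before exon ends, with 33.7% and 27.8%.

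The letters GGACT, the most frequent form of the m6A motif in mammals, were found on the transcribed strand within 50 bases of the summit in 54 of the 626 regions (8.63%) and in 11.6% of the other regions. On the opposite strand of the same windows the shares were 8.15% and 8.70%. With GGACA and GGACC counted as well, 170 regions (27.2%) held at least 1 of these 3 motifs, compared with 32.0% of the other regions and 31.8% of the whole consensus. The opposite strand gave 24% and 25.2%, and windows shifted by 1000 bases gave 21.7% and 23.7%. The median GC content of the 101-base windows was 46.5% and 49.5%. A match is only a match of letters, and windows without one may hold other forms of the motif.

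The Input libraries measured whether the RNA of these genes fell. Irradiation lowered 166 of the 511 genes that had enough counts to test (32.5%, adjusted p under 0.05 in edgeR's quasi-likelihood test over all 16090 genes) and raised 173 (33.9%), where the background over all genes was 24.1% lowered and 22.5% raised. The other 172 did not pass the test, and 6 of the 517 were not tested. Of the genes with other consensus regions only, 36.1% were lowered and 21.1% raised. The median change of the 511 genes was 0.02 on the log2 scale, beside 0.01 for all genes tested and -0.04 for genes with other consensus regions only. Falls of at least 2-fold were found in 55 genes (10.8%), where the background was 2.51%, and rises of at least 2-fold in 3 genes (0.587%; background 1.53%). Among genes with other consensus regions only, 2.38% fell and 0.238% rose by that much. All 6 IR Inputs lay below all 6 Ctrl Inputs for 97 of the 511 genes (19.0%; background 8.45%) and above them for 52 (10.2%; background 5.76%). For genes with other consensus regions only, these shares were 14.9% and 4.03%. The Input may have been the background for peak calling, since the library used for it is not given in the sources used here, so Input and the choice of the regions are not fully independent.

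In contrast, IP counts of the same genes were lower after irradiation nearly throughout. Because the irradiated IP libraries chose the regions, these values are described without a test. The mean IP effect was below 0 in 469 of 514 genes (91.2%; background 49.0%) with a median of -0.43, and at or under -1 in 72 (14.0%; background 2.9%). All 6 IR IP libraries lay below all 6 Ctrl IP libraries for 340 genes (66.1%; background 16.0%). The same held for 34.3% of genes with other consensus regions only. The change of IP relative to Input was below 0 in 442 of the 514 genes (86.0%; background 50.6%), with a median of -0.40 against -0.09 for genes with other consensus regions only. Among the 395 genes whose Input moved by less than 0.5 on the log2 scale, 376 (95.2%) had a negative IP over Input change with a median of -0.43, and 63.5% of the 3836 comparable genes with other regions did. IP over Input was lower by 2-fold or more in 24 genes (4.67%), where the background over all genes, with or without a consensus region, was 5.05%.

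Before irradiation most of these genes, counted whole, were enriched by the antibody in libraries that the rule did not use. Of the genes, 328 also held other consensus regions, so these counts do not show recovery at the missing regions themselves. In cKO Ctrl, IP exceeded Input in 430 of the 514 genes (83.7%; adjusted p under 0.05, edgeR) against a background of 37.8%, with a median of 0.99 on the log2 scale, and 42 genes were lower. Of the genes with other consensus regions only, 86.1% were higher, with a median of 0.84. The levels of these genes were somewhat below those of the rest, at a median of 19.8 CPM in WT Ctrl Input and 52.7 CPM in WT Ctrl IP, beside 26.5 and 60.6 CPM for genes with other consensus regions only.

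**Figure D3:**
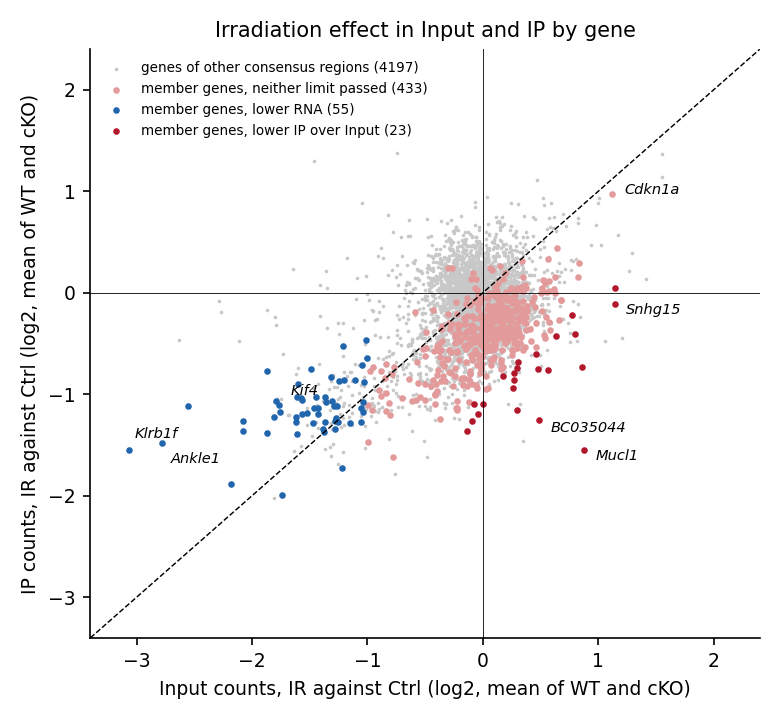
Mean irradiation effect of each gene in Input (x axis, log2) against that in IP (y axis, log2), averaged over WT and cKO; the dashed line marks equal change. Genes of the 626 regions are colored by whether RNA fell at least 2-fold (blue, 55), IP over Input was at least 2-fold lower (dark red, 23) or neither held (pale red, 433), and 4197 genes with other consensus regions only are gray; 1 gray gene lies outside the axes. The pale points sit mostly below the line with Input near 0.

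By these measures the genes fell into a small group with lower RNA, a smaller one with lower enrichment, and a large remainder. The RNA fell at least 2-fold in 55 genes with 85 regions, whose median changes were -1.43 in Input, -1.14 in IP and 0.33 in IP over Input. IP over Input was at least 2-fold lower without such a fall of RNA in 23 genes (4.50%), with medians of 0.31 in Input, -0.79 in IP and -1.16 in IP over Input. The same class held 3.67% of all genes tested and 0.548% of genes with other consensus regions only. Neither limit was reached in 433 genes, with medians of 0.04, -0.37 and -0.41. Counts were taken over whole genes, and 273 of these 433 kept other consensus regions. The classes therefore do not show how much was recovered at the missing regions themselves. No gene reached both limits. With limits of 1.5-fold the numbers became 73 with lower RNA (14.3%; background 4.2%), 130 with lower enrichment (25.4%; background 10.8%), 1 with both and 307 with neither. At the 1.5-fold limits 5.22% of genes with other consensus regions only had lower RNA and 6.77% lower enrichment. The irradiated IP libraries entered the choice of the regions, so nothing is read from the shares with lower enrichment. Among the 189 genes with no other consensus region, 11 had lower RNA, 14 lower enrichment and 160 neither, whereas among the 328 genes that kept other regions the numbers were 44, 9 and 273. Seen from the consensus as a whole, regions on genes whose Input fell 2-fold or more were among the 626 in 85 of 773 cases (11.0%), those on genes that fell by 0.5 to 1 on the log2 scale in 37 of 734 cases (5.04%), regions on genes that changed by less than 0.5 in 437 of 9951 cases (4.39%), and regions on genes that rose by more than 0.5 in 38 of 225 cases (16.9%).

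Kif4, Troap, Sgo1, Bub1 and Ska1 were among the named genes with lower RNA. Kif4, a kinesin of mitotic chromosomes, held 15 consensus regions, of which 4 were among the 626, 1 in coding sequence and 3 in introns. Its Input CPM was 14.0, 13.8 and 15.4 in WT Ctrl and 3.60, 3.32 and 3.89 in WT IR. In cKO it was 13.3, 11.9 and 12.4 in Ctrl and 4.39, 4.11 and 4.39 in IR. The groups did not overlap, and the mean fall was -1.77 on the log2 scale (SE 0.06, adjusted p = 5.5e-15). Its IP CPM was 77.3 to 80.6 in WT Ctrl, 81.8 to 87.7 in cKO Ctrl, 44.0 to 48.1 in the libraries labelled WT IR and 29.8 to 33.0 in those labelled cKO IR. The difference was thus smaller in IP (-1.11) than in Input, and IP over Input was higher by 0.65.

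Troap, a spindle protein, behaved in the same way. Its Input CPM was 4.0, 3.49 and 3.37 in WT Ctrl, 1.25, 0.707 and 0.996 in WT IR, 2.52, 3.33 and 2.99 in cKO Ctrl, and 0.991, 1.45 and 1.05 in cKO IR. Every irradiated Input was below every unirradiated one, with a change of -1.61 (SE 0.14, adjusted p = 6.0e-09) in Input and a difference of -1.39 in IP. Sgo1, the shugoshin that protects cohesin at centromeres, changed by -1.38 (SE 0.12, adjusted p = 9.1e-09) in Input, from 2.88 to 4.19 CPM in Ctrl to 0.908 to 1.54 CPM in IR, and by -1.34 in IP. Bub1, a kinase of the spindle checkpoint, changed by -1.26 (SE 0.06, adjusted p = 2.8e-12) with Input CPM of 10.9 to 14.8 in Ctrl and 4.08 to 5.97 in IR. For Ska1, which links kinetochores to microtubules, all 4 consensus regions were among the 626. It changed by -1.22 (SE 0.14, adjusted p = 2.9e-07) in Input and further, by -1.72, in IP.

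The largest falls of Input were in genes with few counts. Klrb1f, a lectin-like receptor of the natural killer family, had 34, 36 and 46 Input counts in WT Ctrl and 4, 1 and 0 in WT IR. In cKO it had 20, 27 and 11 counts in Ctrl and 3, 1 and 10 in IR. In WT the groups were apart, in cKO the highest IR Input lay above the lowest Ctrl Input in CPM, and the change was -3.06 (SE 0.52, adjusted p = 6.0e-05). Ankle1, a nuclease that cuts DNA bridges in mitosis, held 49 to 79 counts in WT Ctrl, 1 to 6 in WT IR, 48 to 77 in cKO Ctrl and 8 to 26 in cKO IR. Its groups did not overlap and the change was -2.78 (SE 0.33, adjusted p = 6.5e-07), while the IP difference was -1.48. Thy1, a surface glycoprotein of T cells, changed by -2.55 (SE 0.35, adjusted p = 3.6e-06) with 17 to 86 Input counts in Ctrl and 2 to 12 in IR. Sapcd2, a protein of spindle orientation, changed by -2.18 (SE 0.33, adjusted p = 1.3e-05), and Pif1, a DNA helicase, by -2.08 (SE 0.17, adjusted p = 2.6e-09). Asgr2, a subunit of the asialoglycoprotein receptor, changed by -2.08 (SE 0.11, adjusted p = 4.0e-12), from 2.97 to 5.47 CPM in Ctrl to 0.496 to 1.5 CPM in IR.

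On genes with lower RNA that kept other regions, the missing regions were the shorter ones at the median. In the 44 such genes the 67 missing regions had a median length of 189 bases and a median lowest fold of 4.95, beside 254 bases and 6.10-fold for the 257 regions that overlapped an irradiated peak. Kif4 kept 11 of its 15 regions, and, chosen after their values were seen, Cenpe kept 23 of 24 and Kif11 14 of 15. A list of 20 cell cycle genes, a small part of the genes that fell, was also looked at. All 20 fell in Input (median -1.0, from 999 to 1023 CPM summed in WT Ctrl to 497 to 502 CPM in WT IR), and all had consensus regions. Over all genes tested 24.1% were lowered. Of the 127 regions on these 20 genes 2 (1.57%) were among the 626, both on Bub1, compared with 5.14% over the consensus. Regions on all genes whose Input fell 2-fold or more were among the 626 in 11.0% of cases. Kif4, Troap, Sgo1 and Ska1 were not on the list, so it does not stand for all cell cycle genes. Mki67 (11 regions) and Top2a (20 regions) kept every region at Input changes of -1.34 and -1.35.

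Lower enrichment with kept or raised RNA was clearest in Mucl1 and BC035044. Mucl1, a small mucin-like protein gene, had Input CPM of 2.47, 2.73 and 1.75 in WT Ctrl and 3.55, 3.01 and 3.19 in WT IR. In cKO Input it had 4.0, 3.76 and 3.12 CPM in Ctrl and 8.99, 8.90 and 8.22 CPM in IR. Input thus rose, by 0.87 on average (SE 0.10, adjusted p = 2.9e-07). Its IP CPM was 22.2, 19.5 and 21.1 in WT Ctrl, 5.60, 5.92 and 7.30 in cKO Ctrl, 1.94, 2.03 and 2.06 in the libraries labelled WT IR, and 7.82, 7.75 and 7.42 in those labelled cKO IR. WT Ctrl stood far above the other 3 groups already before radiation, and the IP over Input difference was -2.43 on average. BC035044 rose in Input by 0.48 (SE 0.07, adjusted p = 1.2e-05), from 3.44 to 4.21 CPM in Ctrl to 3.68 to 7.55 CPM in IR, with the rise in cKO. Its IP CPM was 60.2 to 60.4 in WT Ctrl, 34.0 to 34.7 in cKO Ctrl, 12.6 to 12.9 in the libraries labelled WT IR and 26.8 to 29.5 in those labelled cKO IR, so that every IR library lay below every Ctrl library. Asgr2, of the lower RNA group, had the same order in IP, with 159 to 167 CPM in WT Ctrl, 85.7 to 91.0 in cKO Ctrl, 32.5 to 37.1 labelled WT IR and 67.8 to 72.3 labelled cKO IR. For these genes the split of the IP change between genotypes depends on the labels that Lyz2 goes against.

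Snhg15, Snhg5, Btla and Gimap1 were also among the named genes of this kind. Snhg15, a host gene of a small nucleolar RNA, rose in Input by 1.14 (SE 0.05, adjusted p = 4.9e-13), from 9.47 to 11.2 CPM in Ctrl to 18.8 to 28.8 CPM in IR, while its IP CPM was 12.7 to 14.8 in Ctrl and 10.4 to 15.7 in IR (-0.11). Its region was weak (1.44 to 1.66-fold) and found in no cKO Ctrl library. Snhg5 read 0.26 in Input (SE 0.13, adjusted p = 0.098) and -0.94 in IP. Btla, an inhibitory receptor of lymphocytes, read 0.30 in Input (SE 0.22, adjusted p = 0.30) with IP CPM of 11.6 to 16.9 in Ctrl and 5.04 to 7.82 in IR. Gimap1, a GTPase of lymphocytes, read 0.48 (SE 0.36, adjusted p = 0.30) at 0.0837 to 0.511 CPM in Input, and its IP groups overlapped. The summed lymphocyte list did not exceed 2.89 CPM in any Input, and its part in these values was not tested. Dnph1 and the replication-dependent histone gene Hist1h2bh completed the named genes of this kind with IP over Input changes of -1.23 and -1.18.

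Several of the strongest regions were on genes with small Input differences. Exosc7, a subunit of the RNA exosome, had Input CPM of 6.68, 8.07 and 7.84 in WT Ctrl, 6.98, 7.75 and 7.01 in WT IR, 6.53, 7.98 and 5.80 in cKO Ctrl, and 7.82, 8.47 and 7.23 in cKO IR. The groups overlapped and the change was 0.08 (SE 0.08, adjusted p = 0.46). In IP it was 14.7 to 16.3 CPM in Ctrl and 9.24 to 11.4 CPM in IR, a change of -0.56. Ezh2, the methyltransferase of Polycomb repressive complex 2, read 29.9 to 35.8 CPM in Ctrl Inputs and 32.0 to 35.9 CPM in IR Inputs (0.07, SE 0.04, adjusted p = 0.11), while its IP CPM was 61.1 to 67.2 in Ctrl and 35.1 to 42.5 in IR. For both genes the missing region was the sole consensus region. Nup85, a nuclear pore protein with 3 of its 4 regions missing, read 0.03 in Input (SE 0.04, adjusted p = 0.63) and -0.82 in IP, from 40.5 to 46.4 CPM to 23.4 to 26.3 CPM.

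Other named genes kept further regions. Ppih, a cyclophilin of the spliceosome, read -0.05 in Input (SE 0.06, adjusted p = 0.58) and -0.93 in IP. Mphosph10, of the U3 small nucleolar RNP, read 0.09 (SE 0.03, adjusted p = 0.020) and -0.54, with 7 of its 8 regions kept. Bud31, a splicing factor, rose in Input by 0.24 (SE 0.03, adjusted p = 1.2e-06) and read -0.26 in IP, with 4 of 5 regions kept. Ergic2, a protein of the ER-Golgi compartment, rose by 0.21 (SE 0.04, adjusted p = 0.00012) and read -0.18 in IP. Cks1b, a subunit of cyclin-dependent kinases, fell by 0.37 in Input (SE 0.05, adjusted p = 5.4e-06), with 9.20 to 10.5 CPM in Ctrl against 6.03 to 6.26 in WT IR and 9.35 to 9.54 in cKO IR. In IP, Cks1b stood at 36.2 to 42.1 CPM in Ctrl and 15.5 to 18.1 in IR, a difference of -1.24.

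Cdkn1a, which encodes the cell cycle inhibitor p21 and was the sole p53 target of a list of 12 with a missing region, went the other way. Its Input CPM was 88.0, 86.5 and 87.2 in WT Ctrl, 196, 199 and 201 in WT IR, 95.3, 97.9 and 99.0 in cKO Ctrl, and 204, 202 and 204 in cKO IR, a rise of 1.12 (SE 0.02, adjusted p = 1.4e-18). In IP it was higher as well, at 128 to 150 CPM in Ctrl and 266 to 287 in IR (0.98). The missing region, 451 bases of the 3′ UTR, had a fold of 1.64 to 2.02 in WT Ctrl and no peak in cKO Ctrl, an irradiated peak lay 139 bases away, and 2 other regions were kept. All 12 p53 targets rose in Input (median 0.66), and 8 of them held 19 consensus regions. Of the 18 interferon-stimulated genes 9 fell and 2 rose, and of the 5 targets that the study singled out on these samples 4 fell (background 24.1% lowered, 22.5% raised). These lists held 2 and 9 consensus regions, too few to read from the absence of all of them from the 626.

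**Figure D4:**
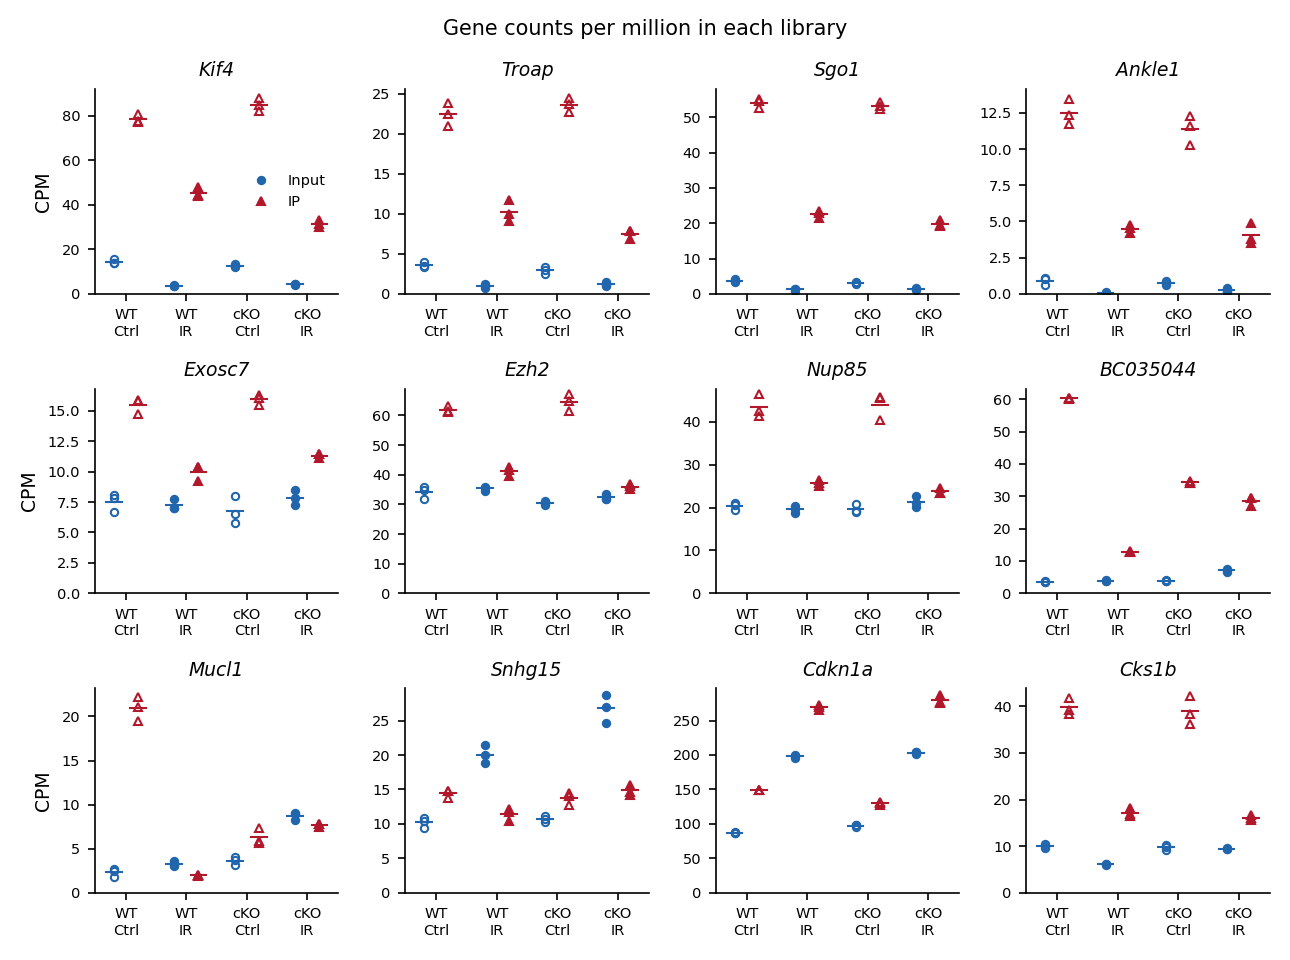
CPM (y axis, from 0) in each Input (blue circles) and IP library (red triangles) for 12 genes, by group as labelled (x axis; open symbols Ctrl, filled IR; short lines are means of 3 libraries); Input and IP were scaled separately. Kif4, Troap, Sgo1 and Ankle1 are lower after irradiation in both, Exosc7, Ezh2 and Nup85 are lower in IP at similar Input, and Cdkn1a is higher in both (Input 86.5 to 99.0 CPM in Ctrl against 196 to 204 CPM in IR).

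The response of the RNA to irradiation differed between genotypes more often in one direction. All these contrasts between genotypes use the WT IR Inputs, whose replicates differed most. Their chi-squared per degree of freedom against sampling noise was 9.72 to 37.6 between pairs, beside 3.53 to 8.34 in the other Input groups. The WT IR Inputs also carried the erythroid RNA, and the part of either in the difference was not tested. In WT Inputs 177 of the 511 genes fell (34.6%; background 17.0%) and 84 rose (16.4%; background 14.7%). In cKO Inputs 137 fell (26.8%; background 23.8%) and 193 rose (37.8%; background 21.8%). Of the genes with other consensus regions only, 28.8% fell and 10.6% rose in WT, and 33.1% fell and 25.8% rose in cKO. Tested as an interaction in the 12 Inputs, the effect was higher in cKO than in WT for 181 of the 511 genes (35.4%; background 15.0%) and lower for 24 (4.70%; background 15.2%). These shares were 23.8% and 16.0% in genes with other consensus regions only. Since Input may have been the background for peak calling, these shares are not fully independent of the choice of the regions. Falls of at least 2-fold were found in 58 of the 511 genes in WT (11.4%; background 2.86%) and in 41 in cKO (8.02%; background 2.11%). In genes with other consensus regions only, these shares were 3.22% and 1.41%. In Bud31 the change was -0.08 in WT and 0.56 in cKO, a difference of 0.64 (SE 0.06, adjusted p = 1.8e-07). In Cks1b it was -0.70 in WT and -0.04 in cKO (difference 0.66, SE 0.10, adjusted p = 6.6e-05), and in Kif4 -2.00 and -1.54 (difference 0.46, SE 0.12, adjusted p = 0.0066).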

How the data were processed

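The 24 libraries were grouped by the labels. Before deposit the authors used Trimmomatic 0.39 for trimming, HISAT for alignment to mm10, MACS2 for peaks (each strand of each library on its own) and HTSeq with a GENCODE annotation for gene counts. By the paper's methods, MACS2 was run with reads extended to a fixed length. The deposited gene tables hold raw counts. The deposited peak files hold, per the file headers and format, fold enrichment as a ratio, -log10 p and q values, a score and a summit, and replicates were not pooled. Whether Input served as the peak caller's control is not given in the sources used here.

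Peaks of WT Ctrl were merged per strand by at least 1 shared base. Genes and features came from GENCODE vM21 by unversioned identifier (54409 of 54446 matched), and 99.9% of its start codons read ATG in the RefSeq GRCm38.p6 genome. Counts were fitted with edgeR 4.0.16 in R 4.3.3 (TMM scaling, quasi-likelihood test, at least 10 counts in at least 3 libraries, Benjamini-Hochberg adjusted p under 0.05): the 12 Inputs, the 12 IP libraries, and all 24. CPM were scaled within Inputs and within IP, with label checks and list sums on plain totals. Log2 effects were averaged over both genotypes. DESeq2 1.42.0, other scalings, filters, overlap rules and left-out libraries were alternatives. Both scripts recovered known answers on simulated data. Replicates differed beyond sampling noise. The members and gene lists were chosen with earlier results of these data known. Genes were named by rule: the 8 highest regions by fold, 6 of those in all 3 cKO Ctrl libraries, the largest Input falls (6) and rises (4), the largest falls of IP over Input at small Input change (6), the most regions (4), and members of the lists. Sequences on chromosome 18 were not printed, and Mns1 and Gm15987, which the rule also named, are given with the other observations.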

Additional observations from a re-analysis of the deposited data

Results flagged for a closer look

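The irradiation effect in Input differed between genotypes, by the interaction test of edgeR over all 16090 genes, for 181 genes with a higher value in cKO and 24 with a lower one, of the 511 tested (background 15.0% and 15.2%). In genes with other consensus regions only, the shares were 23.8% and 16.0%. Differences are given as cKO minus WT on the log2 scale, with 3 libraries per group. Ankle1 fell by 3.87 in WT and 1.69 in cKO (difference 2.18, SE 0.68, adjusted p = 0.019), and Ska1 by 1.89 and 0.55 (difference 1.34, SE 0.27, adjusted p = 0.00075). Smaller differences of the same direction among falling genes were 0.58 in Bub1 (adjusted p = 0.0017), 0.46 in Kif4 (adjusted p = 0.0066) and 0.66 in Cks1b (adjusted p = 6.6e-05). Among genes that rose or hardly moved, the differences were 0.78 in Mucl1 (adjusted p = 0.0046), 0.74 in BC035044 (adjusted p = 0.00053), 0.64 in Bud31 (adjusted p = 1.8e-07), 0.50 in Ppih (adjusted p = 0.0035), 0.35 in Snhg15 (adjusted p = 0.014), 0.22 in Mphosph10 (adjusted p = 0.0069) and 0.21 in Ergic2 (adjusted p = 0.040). Cdkn1a had the opposite sign at -0.13 (adjusted p = 0.038). These Input values do not use the irradiated IP libraries. Input may have been the background for peak calling, however, so they are not fully independent of the choice of the regions. They also rest on the WT IR Inputs, whose replicates differed most among the Input groups.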

How the results depend on the processing

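Of the values that answer a comparison, 305 stayed within 1.5 times of the main value under the alternatives and 10 moved by more. Leaving out an irradiated IP library could only add regions to the number that met the rule. The number of regions depended on single libraries: it was 964, 949 and 1037 without WT Ctrl replicate 1, 2 and 3, and 980 (8.05% of the consensus) without WT IR replicate 2, within a range of 676 to 1037 regions, and as a share of the consensus 5.55% (without cKO IR replicate 3) to 8.05%, over left-out libraries, and 505 to 670 under other overlap and threshold rules. Without WT IR replicate 2, 30.2% of the genes fell in Input, 7.84% at least 2-fold. Choices of genes added after seeing the data gave other shares: 45.3% fell, 22.6% at least 2-fold, where a region was found in all 3 cKO Ctrl libraries, and 18.4% and 5.95% where no other consensus region was present, but 33.2% and 10.6% where the summit was over 50 bases from exon starts. At 1.5-fold limits lower enrichment held 130 genes and both held 1. Leaving out each library in turn gave 159 to 179 genes lower and 164 to 184 higher in Input, 52 to 58 lower at least 2-fold, 435 to 443 with IP over Input below 0 and 421 to 427 enriched in cKO Ctrl. The shares in all cKO Ctrl libraries were 35.4% to 45.8%, against 78.3% to 82.9% for other regions. Replicate numbers did not pair the libraries (correlations of -0.13 to 0.06 in 18 Input pairs, none over 0.1). With a replicate block 166 genes were lower and 167 higher, and no other count moved by over 1.5 times. Of 30 named genes, 28 kept their Input call under every alternative; Mphosph10 lost it without a count filter (adjusted p = 0.074) and without cKO IR replicate 2 (adjusted p = 0.057), and Snhg5 gained it without WT IR replicate 1 (0.35, adjusted p = 0.012). Depth limited Klrb1f, Ankle1, Thy1 and Gimap1, which had few Input counts.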

Other observations

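Of the named genes, 3 lay close together on chromosome 6 of mm10: BC035044 at 128849090 to 128891126, Gm15987 at 128951204 to 128975029 and Klrb1f at 129045901 to 129057464. Gm15987 rose in Input by 1.14 (SE 0.07, adjusted p = 3.1e-11, edgeR), from 3.5 to 4.12 CPM in Ctrl to 7.14 to 9.44 CPM in IR, in all 6 IR libraries. Its IP CPM was 10.3 to 11.6 in WT Ctrl, 5.35 to 6.94 in cKO Ctrl, 4.97 to 6.53 in the libraries labelled WT IR and 11.9 to 13.6 in those labelled cKO IR, so that the order of the groups was unlike that of BC035044. Mns1, a protein of cilia and of meiotic nuclei, held 3 of the 626 regions among its 7 consensus regions and fell in Input by 1.62 on the log2 scale (SE 0.17, adjusted p = 1.7e-07), from 1.20 to 2.59 CPM in Ctrl to 0.421 to 0.872 CPM in IR. Its IP CPM was 26.4 to 32.9 in Ctrl and 10.9 to 13.7 in IR.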
